A study of Citrus maxima and Citrus sinensis with 4 samples.

Results

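The copper miRNAs miR397, miR398, miR408 and miR857 were followed in leaf small RNA of *C. grandis* (sour pummelo, named *Citrus maxima* in the sample labels) and *C. sinensis* ('Xuegan'). Their members were taken as all precursor loci of the deposited miRNA table whose homology label names one of these 4 families, which gave 8 of 699 loci. The labels were taken as given and were not checked by alignment with known miRNAs. A homologue below is a locus with that label. There were 3 miR397 loci, 4 miR408 loci and 1 miR857 locus, and the table listed no locus labelled miR398. By the sample labels, the seedlings were transplanted at 5 weeks of age and treated from 10 weeks later. The methods of the paper give a younger seedling age at the start of treatment. They grew in sand, with boric acid in the nutrient solution at 10 μM in the controls and at 400 μM in the B-toxic plants. Mature leaves were sampled after 15 weeks of treatment. Each of the 4 conditions was sequenced as 1 library made from the mixed RNA of 5 replicates, so that there were no replicate libraries. What is tested below is therefore the difference between particular libraries rather than between conditions, and the intervals cover counting error only, in reads that are not independent molecules. The table holds miRNA loci only and no mRNA marker of leaf tissue, so the labelled tissue could not be checked against marker genes.

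In plants, these families are known as the copper miRNAs because in *Arabidopsis* the transcription factor SPL7 switches them on when copper is short. They direct the cleavage of mRNAs that encode copper proteins which a cell can spare. Those of miR397 and miR857 are laccases, the oxidases that couple lignin monomers in the secondary walls of vessels. MiR408 acts on mRNAs of plantacyanin, a blue copper protein, and of further laccases, whereas miR398 acts on Cu/Zn superoxide dismutase and on the chaperone that loads copper into it. Laccase supply in the vascular bundle is the reason that miR397 is of interest in leaves with excess B.

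The mature sequences of the 8 loci are shown first, because the homology labels cover unlike sequences. They are written 5′ to 3′ as the deposited table gives them, with bases 2 to 8 (the seed) in capitals. The first 3 carry a miR397 label, the next 4 a miR408 label and the last a miR857 label. In the label, the prefix names the species of the known miRNA (osa, rice; sly, tomato; ppt, the moss *Physcomitrella*; zma, maize; csi, *C. sinensis*).
scaffold_6_1101840 (osa-miR397b): uUAUUGAGugcagcguugau
scaffold_9_1513612 (sly-miR397): aUUGAGUGacuuguugagagaugu
scaffold_9_1405458 (sly-miR397): cUUGAGUGuuggaguguggucgcc
scaffold_5_862735 (ppt-miR408b): aGCACUGCcucuucccuggg
scaffold_5_856952 (zma-miR408b-5p): gAGGGACGgacuggggac
scaffold_2_248559 (osa-miR408-5p): uAGGGAUGgcaauggggaggg
scaffold_9_1418033 (osa-miR408-5p): aAGGGAUGgucccucuggaga
scaffold_9_1435469 (csi-miR857): aUUUGAAUgaggcugagauucagg

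The 8 mature sequences were all distinct, and each was listed at a single locus. Whether any of their reads were also counted at other loci cannot be told, because the handling of such reads was not stated. They had 6 distinct seeds. The pair labelled sly-miR397 shared the seed uugagug, the pair labelled osa-miR408-5p shared agggaug, and no other locus among the 699 had either of them. Over all aligned positions, the former pair was identical at 10 of 24 and the latter at 10 of 21. The labels may themselves rest on the seed, which was not tested. A seed shared within a label, or absent elsewhere, is therefore no independent sign of kinship. The number in a locus identifier rose from scaffold to scaffold without overlap over 26 scaffolds, so that it was read as a running number and not as a position. No genome was used here, and chromosome positions are therefore not given.

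Within miR397, likeness was strongest near the 5′ end, though the loci were chosen by label and this is not independent of the labelling. The most abundant member and scaffold_9_1513612 shared a run of 8 nt, shown in capitals, which lay at positions 3 to 10 of the former and 1 to 8 of the latter.
scaffold_6_1101840: uuAUUGAGUGcagcguugau
scaffold_9_1513612: AUUGAGUGacuuguugagagaugu
At that offset 13 of 18 aligned positions were identical, whereas scaffold_9_1405458 was identical to the most abundant member at 10 of 18. The miR397 sequences also differed in length, with 20 nt at scaffold_6_1101840 and 24 nt at both loci labelled sly-miR397.

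The miR408 loci were less alike. Scaffold_2_248559 and scaffold_9_1418033 shared 8 nt at positions 2 to 9 of both sequences and were identical at 10 of 21 positions. The homologue of ppt-miR408b shared no run longer than 5 nt with any other miR408 locus. A label that ends in 5p names the 5′ arm of the known hairpin, and of the 3 members with such a label 1 (scaffold_5_856952) had its mature sequence on the 5′ side of the listed precursor. Across the table the mature sequence lay on the labelled side at 57.0% of 149 loci whose label names an arm.

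The precursor of scaffold_6_1101840 exists in different versions, which are shown because most of the reads in this report come from that locus. The deposited table lists it as a homologue of osa-miR397b, with 108 nt and the mature sequence (capitals) at positions 68 to 87.
deposited: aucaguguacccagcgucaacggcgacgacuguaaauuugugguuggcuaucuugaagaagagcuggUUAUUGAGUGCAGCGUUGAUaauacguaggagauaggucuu
The supplementary list of the study gives the same locus as a homologue of csi-miR397a, with 156 nt and the mature sequence at positions 18 to 37.
supplementary: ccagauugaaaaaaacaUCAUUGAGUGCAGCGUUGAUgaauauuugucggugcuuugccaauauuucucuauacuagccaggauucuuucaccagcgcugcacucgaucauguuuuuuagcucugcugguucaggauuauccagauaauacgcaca
The mature sequences differ by U2C, counted from the 5′ end with the deposited base first, and neither of them occurs in the precursor of the other version. Outside the mature sequence, the precursors shared no run longer than 6 nt. Of 693 loci in both lists, this was the only one whose label, mature sequence or precursor differed, and 7 of the 8 members are in both. The counts used here are those of the deposited table, which do not tell which mature sequence the reads had.

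Minimum free energy folds were predicted with RNAfold, to see how each mature sequence sits in its hairpin. In the deposited precursor of scaffold_6_1101840, 6 of the 20 mature bases paired to 1 other side of the molecule (30.0%). A further 4 paired to the opposite side, and the folding energy was -25.9 kcal/mol. In the supplementary precursor it was 18 of 20 bases (90.0%), at -48.6 kcal/mol. A share of 30.0% or less was found at 13 of the 699 loci (1.86%), against a median of 75.0% over all loci. The sequence of scaffold_2_248559 had 19 of 21 bases paired in this way and that of the csi-miR857 homologue 21 of 24. These were the only members with at most 4 mature bases not paired to that 1 side, a limit met by 40.1% of all loci. The other 5 members paired 65.0% to 70.8% of their mature bases to 1 side. A predicted fold is a property of the listed sequence and no measurement of processing in the leaf.

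**Figure D1:**
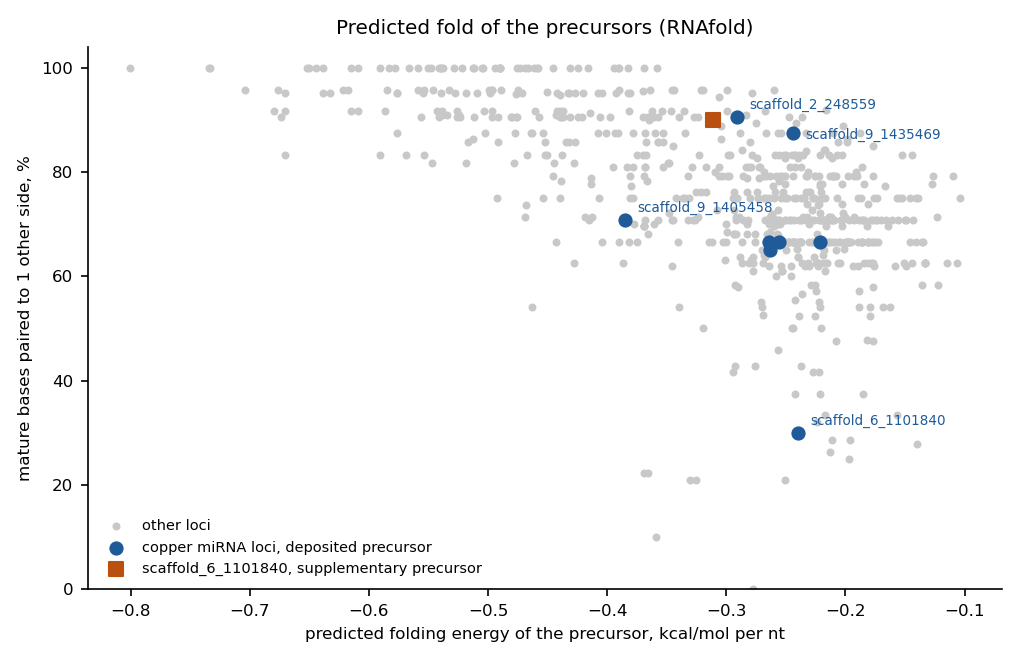
Predicted folds of the 699 precursors: the x axis gives the folding energy in kcal/mol per nt and the y axis the percentage of mature bases paired to 1 other side of the precursor. Grey points are other loci, blue points the copper miRNA loci (4 of 8 named) and the orange square the supplementary precursor of scaffold_6_1101840, which lies at 90.0% while the deposited one lies at 30.0%.

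The copper miRNA loci held few reads. Together they had 159 of the 1289208 mature reads in the table (0.0123%), of which scaffold_6_1101840 had 82. The median member had 10.5 reads over the 4 libraries, against 38 for the median locus. At least 10 reads were found at 4 of the 8 members and at 73.1% of all loci, and reads in all 4 libraries at 4 of the 8 and at 68.4%. Beyond the mature sequence, the precursors had 3 more reads at the csi-miR857 homologue, 1 more at scaffold_9_1418033 and none at the other 6 members. Such reads were present at 78.1% of all loci and at 67.7% of the loci with a homology label. The deposited total does not say where on the precursor those reads lay, so that a miRNA* cannot be told apart from other fragments.

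Levels are given in RPM, reads of the mature sequence per 1000000 mature reads of the same library. The library totals were 373890 (control) and 325441 (B-toxic) reads in *C. grandis*, and 346600 (control) and 243277 (B-toxic) in *C. sinensis*. Where a locus had 0 reads, a working limit of 3 reads was set for its level, worth 8.02, 9.22, 8.66 and 12.3 RPM in these libraries. The exact 95% interval of 0 reads reached higher, for example to 10.6 RPM in control *C. sinensis*. All intervals are exact (Clopper-Pearson) 95% intervals. As a group, the members had 42 reads (112 RPM, 81.0 to 152) in control and 90 reads (277 RPM, 222 to 340) in B-toxic *C. grandis*. In *C. sinensis* they had 13 reads (37.5 RPM, 20.0 to 64.1) in the control and 14 reads (57.5 RPM, 31.5 to 96.6) in the B-toxic library. Scaffold_6_1101840 made up 11 of the 42 and 69 of the 90 reads in *C. grandis*, which was 26.2% (13.9 to 42.0%) and 76.7% (66.6 to 84.9%). Without it, the remaining 7 members summed to 82.9 and 64.5 RPM in *C. grandis*, and to 37.5 and 49.3 RPM in *C. sinensis*, control first.

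**Figure D2:**
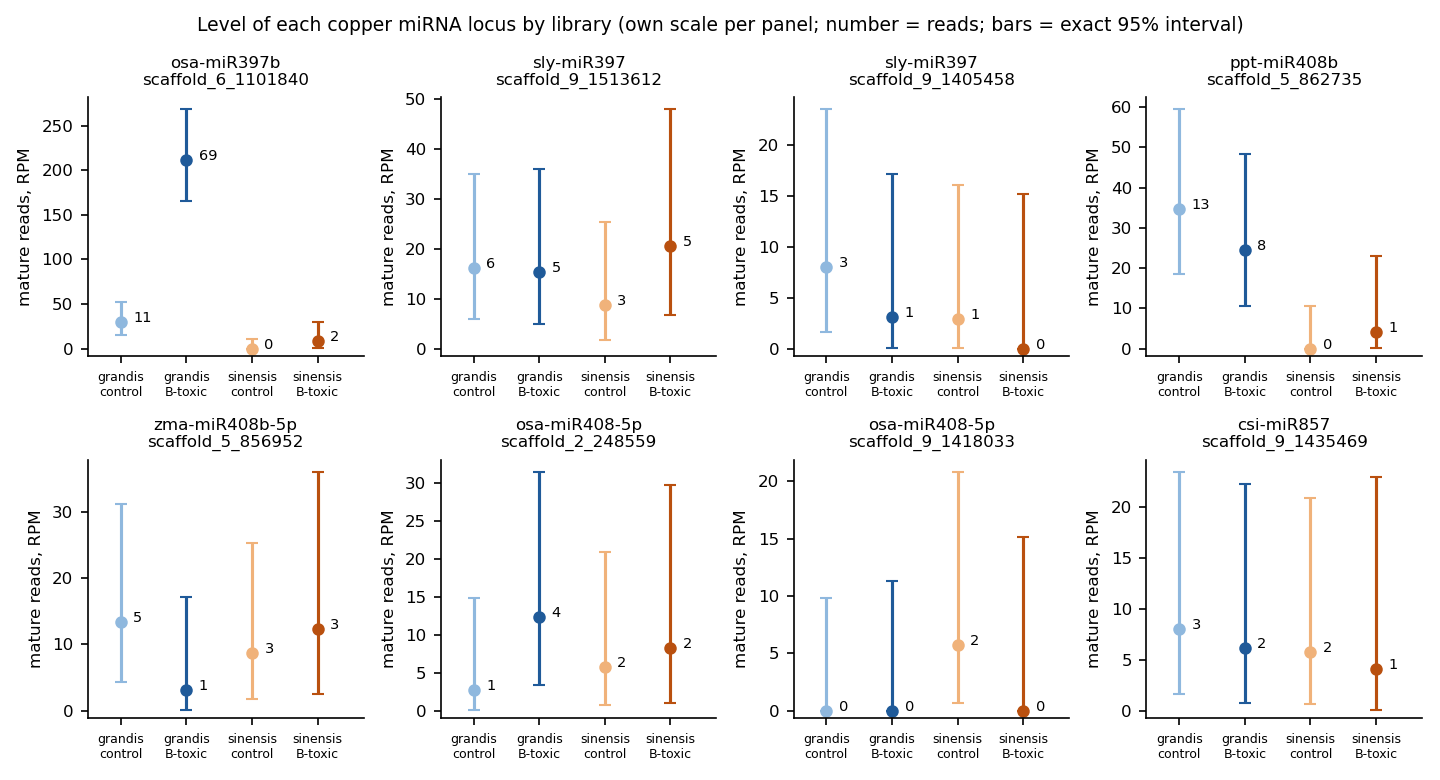
Mature reads of each copper miRNA locus in the 4 libraries, in RPM on the y axis with its own scale in each panel. Points are single libraries labelled with their read number and bars are exact 95% intervals, and at scaffold_6_1101840 the B-toxic *C. grandis* library (69 reads) lies above the other 3 without overlap of the intervals.

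In miR397, scaffold_6_1101840 had 11 reads (29.4 RPM, 14.7 to 52.6) in control and 69 reads (212 RPM, 164.97 to 268) in B-toxic *C. grandis*. It had 0 reads in control and 2 reads (8.22 RPM, 1.00 to 29.7) in B-toxic *C. sinensis*. The interval of the B-toxic *C. grandis* library overlapped with none of the others. In order of abundance, the locus stood at 332 of 597 loci with reads in control and at 148 of 596 in B-toxic *C. grandis*. The locus rose by Fisher's exact test (two-sided, Benjamini-Hochberg adjustment across every locus with a read). It was 7.21-fold higher in the B-toxic than in the control *C. grandis* library (3.79 to 15.1), a log2 ratio of 2.85 (1.92 to 3.92) with an FDR of 3.14e-12. When a coefficient of variation of 0.4 between libraries was assumed, in edgeR's exact test in place of Fisher's, the FDR was 0.569 and the locus was no longer called.

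The other miR397 loci, both labelled sly-miR397, were low in every library. Scaffold_9_1513612 had 6 control and 5 B-toxic reads in *C. grandis*, and 3 control and 5 B-toxic reads in *C. sinensis*, or 8.66 to 20.6 RPM with overlapping intervals. The log2 ratio was -0.06 (-2.11 to 1.91) in *C. grandis* and 1.25 (-1.11 to 3.93) in *C. sinensis*, and neither was called (FDR 1.00 and 0.724 by Fisher's exact test). Its ratio in *C. grandis* had the opposite sign when the libraries were scaled to clean reads or with DESeq2's size factors. Scaffold_9_1405458 had 3 and 1 reads in *C. grandis* and 1 and 0 reads in *C. sinensis*, control first, and these numbers give no ratio.

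Among the miR408 loci, the homologue of ppt-miR408b (scaffold_5_862735) had 13 reads (34.8 RPM, 18.5 to 59.5) in control and 8 reads (24.6 RPM, 10.6 to 48.4) in B-toxic *C. grandis*. *C. sinensis* had 0 reads in the control and 1 read (4.11 RPM, 0.10 to 22.9) in the B-toxic library. Most reads of this locus therefore came from *C. grandis*, where the libraries overlapped. The log2 ratio of the B-toxic over the control library in *C. grandis* was -0.50 (-1.98 to 0.88, FDR 0.762 by Fisher's exact test), and it was not called. In the control *C. grandis* library its level did not differ from that of scaffold_6_1101840 beyond the intervals, whereas in the B-toxic library the intervals were apart.

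The remaining miR408 loci carry 5p labels, which name the arm opposite to the one known to guide cleavage. Scaffold_5_856952 had 5 and 1 reads in *C. grandis* and 3 reads in each library of *C. sinensis*, control first. In *C. grandis* the log2 ratio was -2.12 with an interval of -7.69 to 1.04 (Fisher's exact test, FDR 0.480). Scaffold_2_248559 had 1 and 4 reads in *C. grandis* and 2 in each *C. sinensis* library, with a log2 ratio of 2.20 (-1.14 to 7.82, FDR 0.441) in *C. grandis*. Scaffold_9_1418033 had no read in 3 of the libraries and 2 reads in control *C. sinensis*. All intervals of these 3 loci overlapped between the 4 libraries, and no change was detectable at this depth.

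The miR857 homologue (scaffold_9_1435469) had 3 control reads (8.02 RPM) and 2 B-toxic reads (6.15 RPM) in *C. grandis*. In *C. sinensis* it had 2 control reads (5.77 RPM) and 1 B-toxic read (4.11 RPM). All 4 intervals overlapped. Its reads are too few for a ratio, and the limit of 3 reads was not passed in any library.

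**Figure D3:**
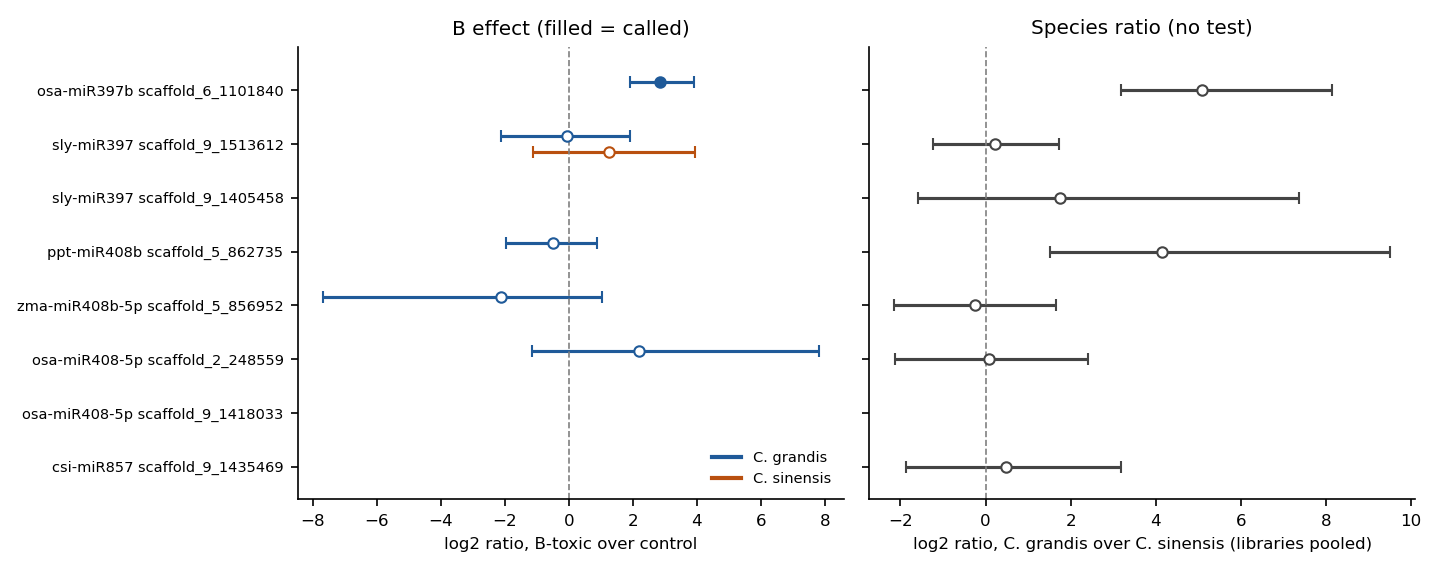
The left panel gives the log2 ratio of the B-toxic over the control library for each locus and species, where a library had over 3 reads, and the right panel the log2 ratio of *C. grandis* over *C. sinensis* with the libraries of a species pooled. Bars are exact 95% intervals and the filled point is the called locus, scaffold_6_1101840 at 2.85 in *C. grandis*, while each open point of the left panel has an interval that includes 0.

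Loci were called where the FDR was under 0.01 and the libraries differed at least by a factor of 2. Of the 8 members, 7 had a read in *C. grandis* and were tested, and 1 was called, against 45 of all 638 loci tested (7.05%). With B, 24 of those had risen (3.76%) and 21 had fallen (3.29%). A single call among 7 loci is read as a statement on scaffold_6_1101840 and not on the families. In *C. sinensis* all 8 members were tested and 0 were called, against 12 of 640 (1.88%), and no member had an unadjusted p below 0.05. The median log2 ratio of all loci with reads in both libraries was -0.06 in *C. grandis* and 0.25 in *C. sinensis*. The depth set what could be called. With the 11 control reads of scaffold_6_1101840, at least 29 B-toxic reads were needed for a rise in *C. grandis*, and with 0 control reads at least 8 were needed in *C. sinensis*, where 2 were found. At scaffold_9_1513612 a call in *C. grandis* needed 21 B-toxic reads from its 6 control reads. A fall to 0 reads would have been called at scaffold_6_1101840 and scaffold_5_862735 in *C. grandis*, and at no member in *C. sinensis*.

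**Figure D4:**
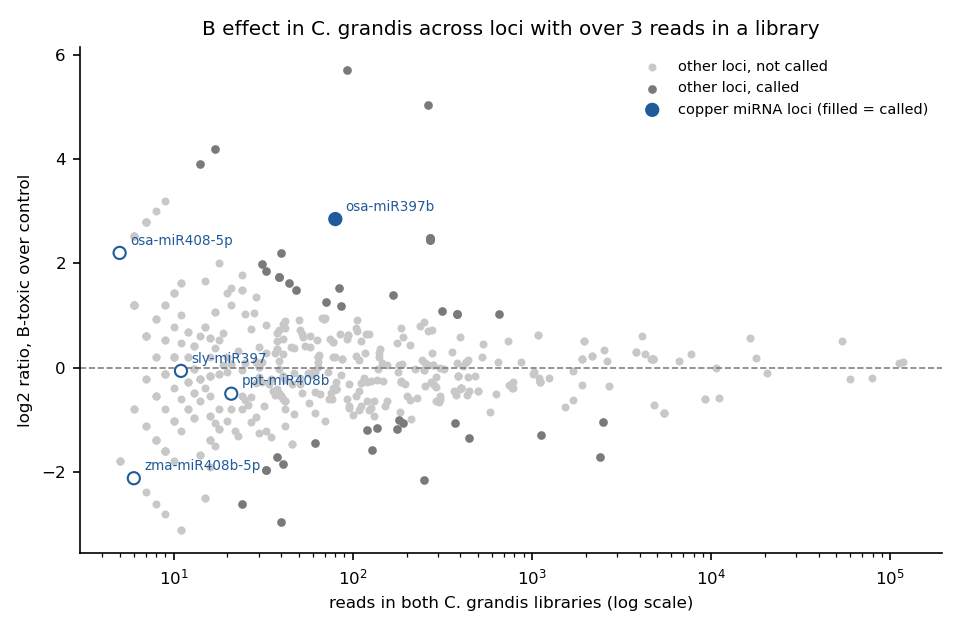
Each point is a locus with reads in both *C. grandis* libraries and over 3 in at least 1 of them, with the sum of its reads in both on the x axis (log scale) and the log2 ratio of the B-toxic over the control library on the y axis. Of the copper miRNA loci, drawn in blue with their labels, scaffold_6_1101840 (osa-miR397b) is filled as called, at 80 reads and a log2 ratio of 2.85, and the other 4 are open.

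Whether the ratio of the B-toxic to the control library differed between the species was tested exactly, conditional on the reads of each species, for 579 loci with a read in either library of both species. None of the 7 members tested was called (0 of 7, none with an unadjusted p below 0.05), against 77 of all loci (13.3%). The FDR of scaffold_6_1101840 was 1.00, since both of its *C. sinensis* reads were from the B-toxic library. In *C. sinensis* its log2 ratio had a lower limit of -1.90 and no upper limit, a range that holds the 2.85 of *C. grandis* as well as no change. The call in *C. grandis* alone therefore does not show that the species differed in their response, nor that they responded alike.

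Levels were compared between the species by edgeR (quasi-likelihood test) with B treatment as a covariate. Its filter on low counts removed all 8 members, and 110 of the 349 loci kept (31.5%) were called at an FDR below 0.05. Scaffold_6_1101840 missed the filter narrowly, with 29.4 RPM in control *C. grandis* against a limit of 29.8 RPM. Pooled over both libraries, this locus had 80 reads (114 RPM) in *C. grandis* and 2 (3.39 RPM) in *C. sinensis*, a ratio of 33.7 (9.04 to 283). Its log2 ratio of the species, 5.08 over all libraries, was 3.12 without the B-toxic *C. grandis*, 3.799 without the control *C. sinensis* and 5.97 without the control *C. grandis* library. The ppt-miR408b homologue had 21 reads (30.0 RPM) and 1 read (1.70 RPM), a ratio of 17.7 (2.85 to 733). Without the control *C. sinensis* library its log2 ratio moved from 4.15 to 2.87, and without the B-toxic one *C. sinensis* had 0 reads. The other loci had pooled intervals that included equal levels, for example 11 and 8 reads at scaffold_9_1513612 and 6 and 6 reads at scaffold_5_856952.

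Without the filter, edgeR called both scaffold_6_1101840 (log2 of *C. grandis* over *C. sinensis* 4.52, FDR 2.12e-06) and scaffold_5_862735 (3.50, FDR 0.0138), 2 of the 8 members against 22.6% of 699 loci. DESeq2 called the former (FDR 0.0201) and not the latter (FDR 0.411), with 17.2% of its 524 loci called. When each sequence was counted once, edgeR's filter kept scaffold_6_1101840 and called it, among 32.4% of 272 sequences. Within the control libraries, Fisher's exact test called the same pair, against 24.7% of 659 loci. There *C. sinensis* had 0 reads at both, and the exact 95% interval of the ratio of *C. grandis* to *C. sinensis* began at 2.33 for scaffold_6_1101840 (FDR 0.00368) and at 2.83 for scaffold_5_862735 (FDR 0.00105). With 3 reads in place of the 0, and leaving aside the counting error of the *C. grandis* reads, the ratios were 3.40 and 4.02. These are no minima, since the exact intervals began lower. The B-toxic libraries, in which 24.5% of 645 loci were called, gave a call for scaffold_6_1101840 with 69 and 2 reads, a ratio of 25.8 (6.87 to 217, FDR 1.15e-13). They gave none for scaffold_5_862735 with 8 and 1 reads (FDR 0.195). The pooled libraries of a species differ in B treatment and are not replicates of each other. The Fisher tests between species and the pooled ratios used mature read totals only, 373890 and 346600 in the controls, *C. grandis* first. Scaled totals were further apart, 427185 and 287721 by edgeR's TMM and 468933 and 283731 by DESeq2. With these, the ratios of *C. grandis* to *C. sinensis* would be lower. Whether the Fisher calls would hold was not tested.

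Loci with a profile like that of scaffold_6_1101840 were sought among 324 distinct sequences with at least 20 reads, by the Euclidean distance between log2(RPM + 10) values centred over the 4 libraries. The closest were scaffold_5_975044 (24 and 60 reads in *C. grandis*, 1 and 1 in *C. sinensis*, control first; distance 1.01), scaffold_5_935679 (7 and 24, 0 and 0; 1.04) and scaffold_8_1371278 (8 and 32, 1 and 0; 1.09). The median distance was 3.19. None of the 3 has a homology label. Like the miR397 locus, they had nearly all of their reads in *C. grandis* and more of them in the B-toxic library, which follows from how they were chosen. With 4 libraries such a likeness is a description only.

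Other nutrient and wall-related families were counted beside the copper miRNAs. No locus carried a label of miR528 or miR1444, which are known to act on copper proteins in grasses and poplar. Of the 8 loci of miR395, which regulates sulfate assimilation and transport, 4 were called higher in B-toxic *C. grandis*, but these list 1 mature sequence repeatedly. With each sequence counted once, 1 of 5 was called higher in *C. grandis*, with a median log2 ratio of 0.55. In *C. sinensis* none of 5 was called. Over all loci, repeated sequences included, 3.76% were called higher in *C. grandis* and 1.88% were called in *C. sinensis*. Counted once over the whole table, 16 sequences were called higher in *C. grandis*. The phosphate families miR399, miR827 and miR2111 had 1 of 4 tested loci called lower in *C. grandis*, against 3.29% of all loci, and none of 6 called in *C. sinensis*. Among miR165, miR166, miR828 and miR858, which act on vascular HD-ZIP III and on MYB transcription factors, 1 of 6 loci (5 distinct sequences) was called lower in *C. grandis*, against the same 3.29%, and none in *C. sinensis*. Single calls in lists of this size say nothing of the families as a whole.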

How the data were processed

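The authors filtered reads, removed other RNA classes, searched miRBase 21, mapped unannotated sequences to the *C. clementina* genome (version 1.0) with MTide to find precursors, and deposited raw counts of mature reads per locus and library. The handling of reads that match several loci was not stated in the methods or labels. Samples were assigned from their labels, and loci by homology label. Members and lists were chosen with earlier results of these data known. All members were named, with the 3 closest profiles.

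Fisher's exact test (two-sided, scipy 1.17.1) compared 2 libraries (FDR below 0.01, ratio of at least 2), an exact conditional test compared ratios between species (FDR below 0.01), and edgeR 4.0.16 compared species (FDR below 0.05, 1 residual degree of freedom). All adjustments ran over the whole table. Folds were predicted with RNAfold 2.7.2. Pairs of libraries with at most 3 reads each got no ratio. The tests were checked on simulated counts with little or no spread between libraries beyond counting error. This check does not cover the spread between plants. Alternatives were other tests, scalings, filters and thresholds, DESeq2 1.42.0, each sequence counted once, and left-out libraries. Coefficients of variation of 0.2 and 0.4 were also assumed, in edgeR's exact test.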

Additional observations from a re-analysis of the deposited data

How the results depend on the processing

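The rise of scaffold_6_1101840 in *C. grandis* was called in 10 of 11 alternatives, with log2 ratios of 2.81 to 3.10. With an assumed coefficient of variation of 0.4 (edgeR's exact test) the ratio stayed 2.85 by construction, the FDR was 0.569 and 0 members were called. With 0.2 the FDR was 0.000248. The ratio of scaffold_9_1513612 in *C. grandis* reversed to 0.19 with clean reads as totals and to 0.084 with DESeq2's size factors. No member was called in *C. sinensis* or for a difference of the B effect under any alternative run. For the species difference, the filter removed all members. Calls were 2 without a filter, 1 with each sequence counted once (1 member tested) and 1 with DESeq2. By Fisher's exact test, run with mature read totals only, they were 2 in the control libraries and 1 in the B-toxic libraries. The log2 species ratio of scaffold_6_1101840 was 3.12 to 5.97 with 1 library left out. Without the B-toxic *C. sinensis* library, *C. sinensis* had 0 reads and no ratio was given. Over all loci, the 45 calls in *C. grandis* became 112 without a ratio limit, and 10 and 3 with assumed coefficients of variation of 0.2 and 0.4. The 12 in *C. sinensis* became 57, 6 and 0, and 21 at an FDR below 0.05. By replicate number, no paired analysis was possible because each condition had 1 library. The edgeR comparison of species held B treatment as a covariate and so set libraries of the same treatment against each other. Mixed RNA shows no spread between plants, and members other than scaffold_6_1101840 had at most 22 reads, which limits them to large changes.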

Other observations

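A pair of members had sequence neighbours outside the copper families, found among all loci by a shared run of at least 12 nt on either strand. Scaffold_2_248559, labelled osa-miR408-5p, shared 17 nt (capitals) with scaffold_3_564882, which is labelled osa-miR5152-5p.
scaffold_2_248559: UAGGGAUGGCAAUGGGGaggg
scaffold_3_564882: cUAGGGAUGGCAAUGGGGuggggu
The run covers positions 1 to 17 of the former and 2 to 18 of the latter, so that nearly the same sequence stands under the numbers of different families. Scaffold_3_564882 had 2 reads in each *C. grandis* library, and 2 (control) and 1 (B-toxic) in *C. sinensis*. The member had 1 and 4 reads in *C. grandis* and 2 reads in each *C. sinensis* library.

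Scaffold_9_1405458, labelled sly-miR397, was close to the reverse complement of scaffold_4_716038, a 24 nt sequence with no homology label. They were complementary at all but 3 of 24 positions, with a run of 13 nt. Written against the reverse complement of scaffold_4_716038, with the base of scaffold_9_1405458 first and positions counted from its 5′ end, the differences were U7C, U10C and G11A.
scaffold_9_1405458: cuugagUguUGgaguguggucgcc
scaffold_4_716038: ggcgaccacacucUGacGcucaag
The capitals mark the positions that are not complementary when the sequences are laid against each other in opposite direction, each of which sets a G against a U. Scaffold_4_716038 had 4 and 2 reads in *C. grandis* and 1 and 1 in *C. sinensis*, control first, beside 3 and 1, and 1 and 0 at the member. At these counts their profiles could not be compared.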
